A study of Mus musculus with 23 samples.

Results

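The 10 genes described here belong to the integrated stress response and were followed in RNA-seq of mouse liver. They were taken by symbol (Atf4, Atf5, Atf3, Ddit3, Trib3, Chac1, Asns, Slc7a11, Sesn2 and Ppp1r15a), and all 10 of 10 were found among the 24062 genes counted and were among the 14196 that passed the filter on low counts. The samples were livers of 23 mice of the mixed B6/129 strain, wild type (WT) or knockout (KO) for Ehhadh, which encodes an enzyme that oxidises fatty acids in peroxisomes, given saline or L-AC. The labels do not spell L-AC out. If it stands for L-aminocarnitine, that compound is known as an agent that inhibits carnitine palmitoyltransferase 2 and with it mitochondrial oxidation of long-chain fatty acids. The WT saline group held 7 mice aged 29 to 45 weeks and the KO saline group 5 aged 31 to 44 weeks. The WT L-AC group held 6 mice aged 28 to 44 weeks and the KO L-AC group 5 aged 28 to 38 weeks. Strain and tissue were shared by all 4 groups. The labels used here state neither the sex of the mice, the dose of L-AC nor the time between dosing and sampling, nor which part of Ehhadh was removed and in which cells.

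In the integrated stress response, kinases that sense amino acid shortage, misfolded protein, viral RNA or lack of heme phosphorylate the translation factor eIF2. General translation then slows, while the messenger RNAs of ATF4, CHOP (the product of Ddit3) and ATF5 are translated better, so that these factors can be active without a change in their own messenger RNA. ATF4 pairs with C/EBP proteins and drives genes of amino acid uptake and synthesis, and the phosphatase subunit encoded by Ppp1r15a ends the response.

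Such ATF and C/EBP pairs bind a composite element, written here as TGATGNAA on either strand. RefSeq windows from 250 bases before to 50 after a gene's start (GRCm38.p6) were found for all 10 genes, in 11 windows. Of the genes, 5 (Asns, Atf3, Chac1, Slc7a11 and Trib3) held these letters, against 3.97% of 32851 windows of all genes. The first count is of genes and the second of windows, which came from 27025 genes, so the units differ. The cAMP response element TGACGTCA was found in Ppp1r15a alone of the 10 and in 1.79% of all windows. No window of the 10 held both. The stretches before the start that hold a match are shown because they differ in the number, strand and place of the element. The matches are in capitals, each line reads 5′ to 3′ on the strand of the gene, and the match is a description of letters, not a measured binding site.
Asns, chr6:7693210-7693262, minus strand: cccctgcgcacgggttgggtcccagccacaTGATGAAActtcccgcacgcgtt
Atf3, chr1:191183406-191183473, minus strand: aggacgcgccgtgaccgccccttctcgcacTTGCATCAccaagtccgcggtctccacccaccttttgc
Chac1, chr2:119351019-119351086, plus strand: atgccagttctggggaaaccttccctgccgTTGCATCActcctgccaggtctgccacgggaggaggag
Slc7a11, chr3:50443623-50443709, minus strand: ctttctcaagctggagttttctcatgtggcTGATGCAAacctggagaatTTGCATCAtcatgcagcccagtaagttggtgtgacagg
Ppp1r15a, chr7:45526269-45526310, minus strand: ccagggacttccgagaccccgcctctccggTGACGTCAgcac

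Counted from the RefSeq start, the element lay 23 bases before it in Asns, 110 in Atf3 and 193 in Chac1. Slc7a11 held a pair, 66 and 47 bases before its start and on opposite strands. In Trib3 the match lay 15 bases after the start and is not printed. The windows of Atf4, Atf5, Ddit3 and Sesn2 held neither set of letters.

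Libraries held 24521896 to 48095959 counted reads. Ehhadh, the targeted gene, had 635 to 1635 CPM (counts scaled to the size of the library) in WT saline and 90.9 to 253 in KO saline, and 10260 to 14650 in WT L-AC against 1421 to 2144 in KO L-AC, so its order followed the genotype labels within each treatment. The liver label was checked with 5 hepatocyte genes (Alb and 4 others), whose summed level was 29500 to 67700 CPM over the 23 libraries and was lower on L-AC (29500 to 51400) than on saline (53800 to 67700). The sum is mostly Alb, and the genes did not all move alike: Alb, Ttr and Serpina1a fell in both genotypes, while the log2 differences of Apoa1 (-0.12 in WT, -0.32 in KO) and Cps1 (0.59 and 0.65) did not pass. Summed markers of other cells were far lower, from 36.8 to 190 CPM for Kupffer cells and macrophages and 0.189 to 1.28 CPM for neutrophils, for which 1 of 4 counted markers was at 0 in all KO L-AC libraries. In bulk liver, fewer cells of a type and less RNA per cell cannot be told apart. L-AC moved much of the transcriptome: edgeR's quasi-likelihood test called 53.3% of the genes tested in WT and 48.8% in KO at a Benjamini-Hochberg adjusted p under 0.05.

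Against that background, 3 of the 10 genes were called in WT on L-AC. Atf3 and Sesn2 rose (2 genes, where 26.6% of all genes rose) and Ddit3 fell (1 gene, where 26.7% fell). In KO, 6 genes rose (25.2% of all genes did) and 0 fell (23.6% did): Atf3, Trib3, Asns, Slc7a11, Sesn2 and Ppp1r15a. The median log2 fold change of the 10 genes was 0.16 in WT and 1.19 in KO, where that of all genes was -0.01 in both. The contrasts of the genotypes called none of the 10. The KO count depended on replicates 2 and 3 of KO L-AC: without them, chosen after their values were seen, edgeR called 2 of the 10 genes in KO, Sesn2 higher and Ddit3 lower, where 43.2% of all genes were called. The medians include that pair and WT saline replicate 1, and were not taken without them. Without the pair, KO values were 1.34 for Atf3 (2.55 with it), 0.82 for Trib3 (1.31), 0.48 for Slc7a11 (2.15) and 2.28 for Asns (2.51). Without WT saline replicate 1, Asns in WT was 2.94 (0.11 with it).

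**Figure D1:**
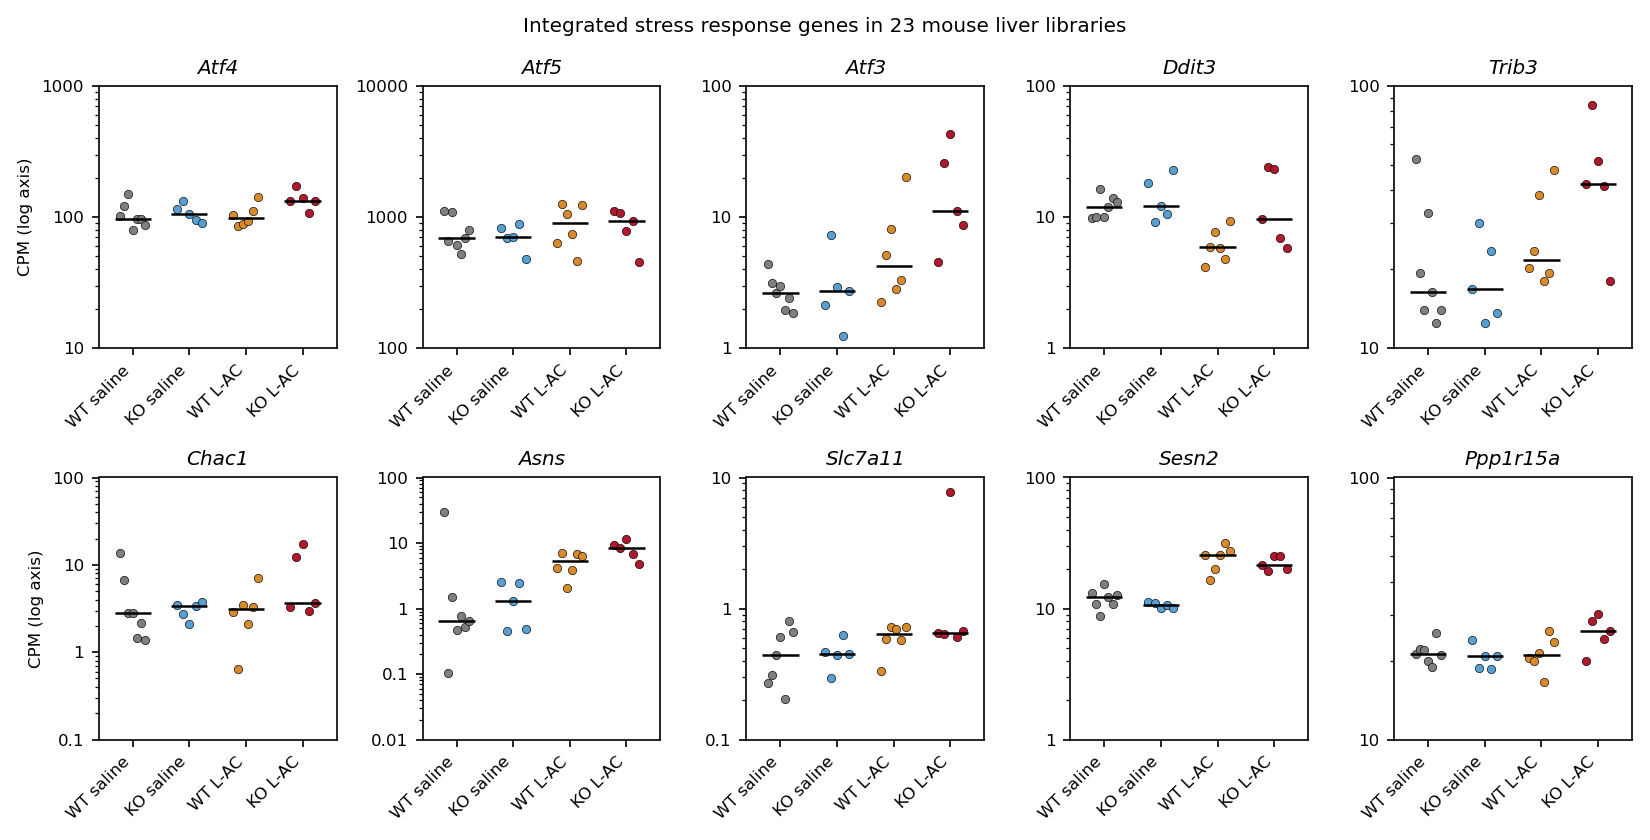
Level of each of the 10 genes in every library, in CPM on a logarithmic axis whose range differs between panels. Each point is 1 mouse and the bar is the group median; Sesn2 separates L-AC from saline completely, whereas Asns in WT saline, Slc7a11 in KO L-AC and Atf3 in WT L-AC each hold 1 point far above its group.

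Levels per kilobase of exon ordered the genes in WT saline from Atf5 at 391 ± 115 CPM per kb (SD, n = 7) and Atf4 at 60.3 ± 13.6 to Slc7a11 at 0.0511 ± 0.0245. Between them lay Ddit3 at 13.9 ± 2.79, Trib3 at 11.3 ± 7.21, Ppp1r15a at 9.21 ± 0.882 and Sesn2 at 4.52 ± 0.797. Chac1 (2.81 ± 2.80), Asns (2.47 ± 5.62) and Atf3 (1.402 ± 0.435) followed. Neighbours in this order from Ddit3 to Ppp1r15a and from Sesn2 to Atf3 lay within their spread. Atf5 and Atf4 stood clear of the genes next to them, and Slc7a11 of Atf3, the next gene by mean. The place of Asns rested on WT saline replicate 1, which had 29.3 CPM where the group median was 0.646. By its median Asns would stand lower in this order, nearer to Slc7a11.

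Atf4 encodes the central transcription factor of the response (chromosome 15, 80255184 to 80257545 on mm10, plus strand, 3 exons). Its level was 79.3, 96.8 and 149 CPM (lowest, median, highest) in WT saline and 84.8, 99.0 and 141 in WT L-AC, a ratio of 0.998 (SE of log2 0.144, adjusted p = 0.99). The KO saline libraries had 116, 133, 105, 94.6 and 89.4 CPM and the KO L-AC libraries 133, 173, 141, 108 and 132. The ranges of all 4 groups overlapped, and the log2 difference in KO of 0.35 (SE 0.164, adjusted p = 0.0787) missed the threshold. It was 0.21 (adjusted p = 0.384) without replicates 2 and 3 of KO L-AC, and passed without KO saline replicate 2 (0.44, adjusted p = 0.0385) and without KO L-AC replicate 4 (0.43, adjusted p = 0.0424).

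Atf5, a related factor that is abundant in liver (chromosome 7, 44812256 to 44816658, minus strand, 4 exons), had 518, 689 and 1103 CPM in WT saline and 465, 899 and 1260 in WT L-AC. KO saline libraries ran from 478 to 878 CPM and KO L-AC libraries from 456 to 1102. The ranges of the groups overlapped, with the top of KO saline below that of the others. Neither L-AC contrast passed, with log2 differences of 0.21 (SE 0.239, adjusted p = 0.483) in WT and 0.28 (SE 0.272, adjusted p = 0.418) in KO. Atf5 shares 82 exonic bases with Nup62 and its read-through transcript Nup62-il4i1, and reads there were counted for each of them.

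Atf3 encodes a stress-induced factor of the same family that lies downstream of ATF4 (chromosome 1, 191170297 to 191183333, minus strand, 4 exons). In WT it had 1.85, 2.65 and 4.39 CPM on saline and 2.24, 4.23 and 20.1 on L-AC. The KO saline libraries had 2.11, 7.30, 2.91, 1.23 and 2.70 CPM, and the KO L-AC libraries 4.57, 26.0, 43.4, 11.1 and 8.67. On L-AC the WT libraries overlapped those on saline and 1 of them, replicate 6, was far above the rest; in KO, 4 of 5 libraries on L-AC lay above all 5 on saline. Atf3 rose 2.53-fold in WT (log2 1.34, SE 0.519, adjusted p = 0.0337) and 5.85-fold in KO (log2 2.55, SE 0.61, adjusted p = 0.00149). The WT call was lost in 8 of 34 alternatives, among them without WT L-AC replicate 6 (0.64, adjusted p = 0.265) and in limma-voom (0.99, adjusted p = 0.159), and the KO value was 1.34 (adjusted p = 0.0678) without KO L-AC replicates 2 and 3.

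Ddit3, which encodes the pro-apoptotic factor CHOP (chromosome 10, 127290793 to 127296288, plus strand, 4 exons), was the gene that fell. It had 9.89, 11.97 and 16.2 CPM in WT saline and 4.15, 5.87 and 9.26 in WT L-AC. These ranges did not overlap (12.1% of all genes lay lower on L-AC in WT with no overlap), and the fall by 0.95 on the log2 scale (SE 0.303, adjusted p = 0.0114) passed the threshold. On saline the KO libraries had 18.2, 9.18, 12.2, 10.5 and 22.7 CPM. Those on L-AC had 9.65, 24.2, 23.2, 6.94 and 5.77. Replicates 2 and 3 of KO L-AC were above every saline library of either genotype, the other 3 were within or below the range of KO saline, and the log2 difference over all 5 was -0.06 (SE 0.335, adjusted p = 0.888). Without those 2 libraries it was -0.97 (adjusted p = 0.0105). Ddit3 shares 68 exonic bases with Mars, the methionyl-tRNA synthetase gene, and because strand was ignored reads there counted for both; Mars had 65.9 to 85.8 CPM over all 23 libraries.

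Trib3 encodes a pseudokinase that CHOP and ATF4 induce and that restrains Akt and ATF4 (chromosome 2, 152337425 to 152344060, minus strand, 4 exons). WT saline had 12.4, 16.3 and 52.6 CPM and WT L-AC 18.0, 21.8 and 47.7. In KO the 5 saline libraries had 16.8, 29.9, 12.4, 23.5 and 13.6 CPM, and the 5 on L-AC 42.1, 84.9, 51.8, 41.7 and 18.0. In KO, 4 of 5 libraries on L-AC were above all 5 on saline, whereas in WT the highest library of all was on saline, replicate 1. The rise in KO was 2.49-fold (log2 1.31, SE 0.415, adjusted p = 0.0118), and the WT difference was 0.27 (SE 0.359, adjusted p = 0.538). Without KO L-AC replicates 2 and 3 the KO value was 0.82 (adjusted p = 0.142).

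Chac1, which encodes a glutathione-degrading enzyme (chromosome 2, 119351242 to 119354327, plus strand, 3 exons), was not called in any contrast with all libraries in the fit. It had 1.37, 2.79 and 13.5 CPM in WT saline and 0.649, 3.12 and 7.07 in WT L-AC, a log2 difference of -0.42 (SE 0.546, adjusted p = 0.531). KO saline was narrow, at 3.44, 2.77, 2.08, 3.41 and 3.76 CPM. In KO L-AC, 3 libraries stayed in that range (3.31, 2.97 and 3.61 CPM) and replicates 2 and 3 had 12.3 and 17.4. The log2 difference in KO was 1.35 (SE 0.624, adjusted p = 0.0767), and 0.0897 (adjusted p = 0.922) without those 2. It passed in 3 alternatives: the 2 KO groups fitted alone (1.34, adjusted p = 0.0382), without WT saline replicate 1 (1.35, adjusted p = 0.0429) and without KO L-AC replicate 4 (1.56, adjusted p = 0.0495).

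Asns encodes asparagine synthetase, a standard readout of amino acid shortage (chromosome 6, 7675171 to 7693182, minus strand, 12 exons; element printed above). In WT saline replicate 1 had 29.3 CPM and the other 6 had 0.104 to 1.49, with a group median of 0.646. WT L-AC had 2.06, 5.24 and 7.12 CPM. Every WT L-AC library was thus above 6 of 7 saline libraries and below the other one, and the fitted log2 difference was 0.11 (SE 0.822, adjusted p = 0.92). Without WT saline replicate 1 it was 2.94 (adjusted p = 1.74e-05), and limma-voom gave 2.48 over all libraries (adjusted p = 0.0032).

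In KO, Asns had 2.51, 0.461, 1.30, 2.48 and 0.494 CPM on saline and 9.48, 8.46, 11.7, 6.90 and 4.72 on L-AC. The groups did not overlap (17.1% of all genes lay higher on L-AC in KO with no overlap), and the rise was 5.70-fold (log2 2.51, SE 1.01, adjusted p = 0.0437). All groups share 1 estimate of the spread, and without WT saline replicate 1 the value in KO was 2.51 with an adjusted p of 0.000178. The KO call was lost in 11 of 34 alternatives, and without KO L-AC replicates 2 and 3 the value was 2.28 (adjusted p = 0.113). It was kept when WT saline replicate 1 was left out together with that pair. The remaining KO L-AC libraries, at 4.72 to 9.48 CPM, all lay above those of KO saline.

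Slc7a11 encodes the transporter that exchanges cystine for glutamate (chromosome 3, 50364936 to 50443613, minus strand, 12 exons) and was the least abundant of the 10 per kilobase. It had 0.203, 0.442 and 0.802 CPM in WT saline and 0.332, 0.641 and 0.727 in WT L-AC. The KO saline libraries had 0.465, 0.294, 0.441, 0.627 and 0.451 CPM. In KO L-AC, 4 libraries had 0.648, 0.642, 0.608 and 0.679, and replicate 3 had 7.73, which is 224 reads. The fitted rise in KO, 4.45-fold (log2 2.15, SE 0.607, adjusted p = 0.00553), rested on that library: the call was lost without it and in limma-voom, and without replicates 2 and 3 the value was 0.48 (adjusted p = 0.293).

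The same library had the highest summed level of 6 Kupffer cell and macrophage markers in its group, 139 CPM, where the other KO L-AC libraries had 36.8 to 76.5 and all other libraries 43.6 to 190. Within that list it was Cd68, a lysosomal protein of macrophages, that was high there, at 66.0 CPM against 7.29 to 17.9 in the other 4. Clec4f, a Kupffer cell lectin, was at 30.7 CPM there and at 14.4 to 26.4 in the others. No marker of the list was at 0. The part of these cells in the Slc7a11 value was not tested.

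Sesn2, which encodes sestrin 2, an inhibitor of mTORC1 that senses leucine (chromosome 4, 132492807 to 132510456, minus strand, 10 exons), separated the treatments in both genotypes. WT saline had 8.78, 12.3 and 15.5 CPM and WT L-AC 16.6, 25.6 and 31.5. The KO saline libraries had 11.2, 11.1, 10.1, 10.7 and 10.1 CPM and the KO L-AC libraries 21.3, 19.5, 25.1, 25.4 and 20.1. No library on saline reached the lowest on L-AC in either genotype (12.0% of all genes lay higher on L-AC in WT with no overlap). The rise was 2.04-fold in WT (log2 1.03, SE 0.129, adjusted p = 8.65e-07) and 2.10-fold in KO (log2 1.07, SE 0.149, adjusted p = 4.34e-06). Both calls were kept in all 34 alternatives run.

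Ppp1r15a encodes GADD34, the phosphatase subunit that reverses eIF2 phosphorylation (chromosome 7, 45522917 to 45526268, minus strand, 3 exons). It had 18.9, 21.2 and 25.4 CPM in WT saline and 16.7, 21.0 and 25.8 in WT L-AC, a ratio of 0.992 (SE of log2 0.101, adjusted p = 0.936). Saline libraries of KO had 24.02, 18.7, 20.9, 18.6 and 20.8 CPM and the KO L-AC libraries 19.95, 28.3, 30.1, 24.3 and 25.8. In KO, 4 of 5 libraries on L-AC were above all 5 on saline. The rise there was small, 1.25-fold (log2 0.32, SE 0.115, adjusted p = 0.0255), and was 0.18 (adjusted p = 0.261) without replicates 2 and 3. The call was lost in 7 of 34 alternatives, among them leaving out any 1 of KO saline replicates 2 and 4 and KO L-AC replicates 2 and 3.

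**Figure D2:**
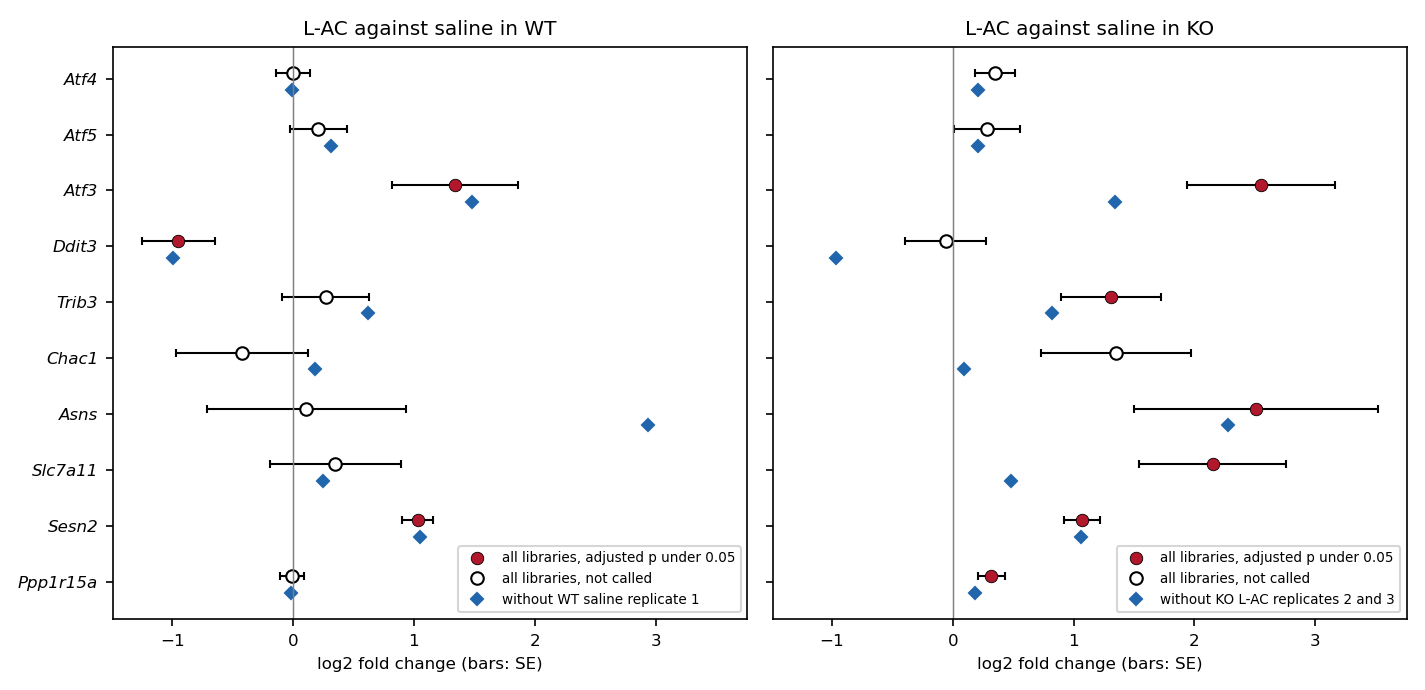
Log2 fold change of L-AC against saline for each gene in WT (left) and KO (right), with bars of 1 SE; filled points passed an adjusted p under 0.05 and diamonds are the values without the libraries named in the key. Leaving out WT saline replicate 1 moves Asns in WT from 0.11 to 2.94, and leaving out KO L-AC replicates 2 and 3 moves Chac1 in KO from 1.35 to 0.0897, while Sesn2 stays near 1.05 in both panels.

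The genotypes were then compared within each treatment. Under saline 0 of the 10 genes were called by edgeR, DESeq2 or limma-voom, where 0.0141%, 0.0493% and 0.0141% of all genes were. DESeq2 gave Slc7a11 no adjusted p, so its counts of calls, here and below, do not cover that gene. In edgeR 0 had an unadjusted p under 0.05, as 1.86% of all genes did. That count became 1 without WT saline replicate 1 (1.68% of all genes), and also 1 without WT saline replicate 2 (1.75%). The log2 differences of KO against WT ran from -1.69 (Asns, SE 0.952) to 0.26 (Ddit3, SE 0.308). The Asns value came with WT saline replicate 1, without which it was 1.13.

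Under L-AC 0 genes were called by edgeR, DESeq2 or limma-voom, where 0.0141%, 0.106% and 0.0141% of all genes were. An unadjusted p under 0.05 was held by 6 in edgeR (4.53% of all genes), 6 in DESeq2 (4.71%) and 4 in limma-voom (4.12%). The 6 in edgeR were Atf4, Atf3, Ddit3, Chac1, Slc7a11 and Ppp1r15a, each higher in KO, by 0.40 (SE 0.156), 1.42 (SE 0.545), 1.15 (SE 0.325), 1.27 (SE 0.587), 1.76 (SE 0.555) and 0.27 (SE 0.11) on the log2 scale. Their ranges overlapped between genotypes. With single libraries left out, 2 (without KO L-AC replicate 3) to 7 genes had such a p, as did 3.32% to 6.92% of all genes. Without both KO L-AC replicates 2 and 3, 0 of the 10 did (2.39% of all genes), and the values of the 6 genes in the same order were 0.25, 0.22, 0.25, 0.0123, 0.0901 and 0.13.

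The interaction, which tests whether the response to L-AC differed between genotypes, called 0 of the 10 in edgeR, DESeq2 and limma-voom (0.0% of all genes in edgeR), with Slc7a11 again not covered by DESeq2. At an unadjusted p under 0.05 it held 3 genes in edgeR (2.25% of all genes), namely Chac1 at 1.77 (SE 0.828), Slc7a11 at 1.81 (SE 0.815) and Ppp1r15a at 0.33 (SE 0.153), and 0 without KO L-AC replicates 2 and 3 (1.49% of all genes). Without WT L-AC replicate 6 it held 7 of the 10 (2.66% of all genes), with 0 called, and the other single libraries left out gave 0 to 4 (1.83% to 4.12% of all genes). So the larger count of called genes in KO than in WT is not shown to be a difference between the genotypes. The Sesn2 interaction was 0.04 (SE 0.195), with a 95% interval from -0.34 to 0.42.

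Within groups, single libraries stood apart in several of the 10 genes at once. KO L-AC replicate 3 was the highest of its group in 5 of the 10 genes (Atf3, Chac1, Asns, Slc7a11 and Ppp1r15a) and replicate 2 in 3 (Atf4, Ddit3 and Trib3). A count of 3 was not particular to it, since KO saline replicates 1 and 2 were each highest in 3 genes too. Against the median of their group, KO L-AC replicates 3 and 2 were at 3.91-fold and 2.35-fold for Atf3, 2.4-fold and 2.51-fold for Ddit3 and 4.81-fold and 3.41-fold for Chac1. Sesn2 did not follow, at 1.18-fold and 0.913-fold. WT L-AC replicate 6 was above its group's median in all 10 genes and the highest in 5 (Atf4, Atf3, Ddit3, Trib3 and Chac1). WT saline replicate 1 was the highest in 5 (Atf5, Atf3, Trib3, Chac1 and Asns), with Asns 45.3-fold above the median but Ddit3 at 0.826-fold, the lowest of its group.

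**Figure D3:**
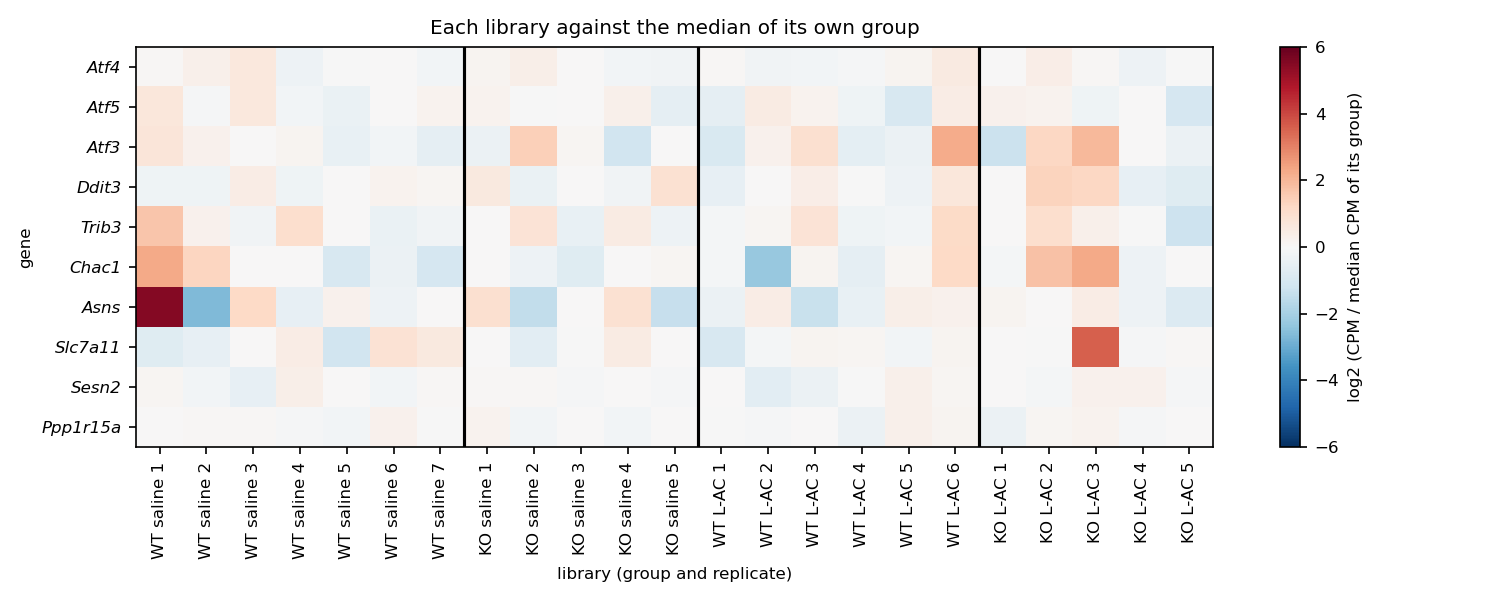
Each library's level as log2 of its CPM over the median CPM of its own group, for the 10 genes (rows) in 23 libraries (columns, groups split by lines). Red cells mark libraries above their group: WT saline replicate 1 is 45.3-fold above for Asns, KO L-AC replicate 3 is 11.9-fold above for Slc7a11, and Atf3, Ddit3 and Chac1 are red together in KO L-AC replicates 2 and 3.

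Other target genes were looked at in these libraries, and they did not all vary alike. Over KO L-AC the highest library was 3.34-fold the lowest for Psat1 and 5.07-fold for Mthfd2. For Psph and Gpt2, which are described below, it was 1.86-fold and 1.57-fold. The genes that follow are therefore examples and do not stand for all targets. Psat1, of serine synthesis, stood at 8.80 and 12.2 CPM in replicates 2 and 3 of KO L-AC and at 3.65 to 4.90 in the other 3, and Mthfd2, of mitochondrial folate metabolism, had 7.40 and 11.8 CPM against 2.32 to 2.90. WT saline replicate 1 had 4.02 CPM of Psat1 and 3.00 of Mthfd2, where the other 6 had 0.25 to 0.957 and 0.621 to 1.49. Nupr1, a stress-induced chromatin protein chosen after its values were seen, stood at 3.51 and 8.84 CPM in that pair and at 0.309 to 0.989 in the other 3. In depth they lay close to the rest of their group, with 26328254 and 26325848 reads against 26612528 to 31206300 in the other 3. Their mice were 31 and 28 weeks old, where the other 3 were 29 to 38 weeks old.

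Over the 23 libraries, the deviations from group means (log2 CPM) were most alike between Trib3 and Chac1 (Pearson r = 0.61), Atf3 and Trib3 (0.60) and Atf3 and Chac1 (0.57), whereas Atf4 with Slc7a11 gave -0.09 and Sesn2 with Atf5 -0.37. Of 12055 genes compared outside the 10, Asns was most like Psat1 (0.80) and Chac1 like Gadd45a (0.74), which at 0.78 was also among the genes most like Atf3. Trib3 was most like Copz2 (0.81), Ddit3 like Traf2 (0.74) and Gtpbp2 (0.73), and Slc7a11 like Rnh1 (0.86) and Cd68 (0.85). Atf4 was most like Btbd19 (0.83), Sesn2 like Ddx19a (0.73) and Ppp1r15a like Rasal2 (0.71). For Atf5 the most alike were Nup62 and Nup62-il4i1 (both 0.97), the genes that share its exonic bases. These values are descriptions over libraries that share depth and a few high samples.

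The steps above and beside the 10 genes were described with 9 lists of pathway genes. Of all genes tested, 26.6% rose and 26.7% fell in WT on L-AC, and 25.2% rose and 23.6% fell in KO. The counts of each list are to be read beside these shares, and that of the eIF2 kinases was close to the share that rose. Of 4 eIF2 kinase genes, 1 rose in each genotype: Eif2ak3, which encodes PERK, the kinase that senses misfolded protein, with log2 fold changes of 0.69 (SE 0.188) in WT and 0.93 (SE 0.216) in KO. Among 13 genes of eIF2, its exchange factor eIF2B and the phosphatase partners, 8 rose and 1 fell in WT, and 9 rose and 0 fell in KO. Examples are the eIF2B subunit gene Eif2b3 (1.13 in WT, 1.31 in KO) and Eif2s1, which encodes the phosphorylated subunit (0.60 and 0.82). The median of that list was 0.29 in WT and 0.32 in KO.

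Of 10 partners of ATF4 and CHOP with a basic leucine zipper, 1 rose and 3 fell in both genotypes. The number that fell was near the share of all genes that fell, 26.7% in WT and 23.6% in KO. Cebpa, the C/EBP factor of mature hepatocytes, fell (-1.59 in WT, -1.41 in KO), as did Fos (-1.95 and -1.71) and Batf3 (-2.03 and -1.34), and Cebpd, an inflammation-induced C/EBP factor, rose (1.36 and 0.94). Batf3 was near the floor, with medians of 0.337 CPM in WT saline and 0.0422 in WT L-AC. Its KO medians were 0.430 on saline and 0.239 on L-AC, so depth limits its values. In the ATF6 and XBP1 branch of the unfolded protein response, 0 of 16 genes rose and 7 fell in WT, and 0 rose and 5 fell in KO. Edem1, of endoplasmic reticulum degradation, changed by -1.01 and -1.04, and the disulfide isomerase Pdia6 by -1.17 and -0.80.

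Of 16 other targets of ATF4 or CHOP that were tested (18 listed), 9 rose and 3 fell in WT, and 8 rose and 2 fell in KO, with medians of 0.42 and 0.72. Among all genes 26.6% rose and 26.7% fell in WT, and 25.2% rose and 23.6% fell in KO. Gpt2, an alanine aminotransferase, rose by 1.70 and 1.72, and Sqstm1, the autophagy receptor p62, by 0.56 and 1.01. Cdkn1a, a cell cycle inhibitor that p53 also induces, rose by 2.56 and 2.81, whereas Cth, of cysteine synthesis, fell (-1.77 and -1.47). The list thus went in both directions.

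Amino acid transporter genes rose in 4 of 9 cases in WT (1 fell) and 4 of 9 in KO (0 fell). The share of all genes that rose was 26.6% in WT and 25.2% in KO. Slc3a2, the heavy chain that carries Slc7a11 and other transporters to the membrane, rose by 1.51 in WT and 1.69 in KO, the glycine transporter Slc6a9 by 1.62 and 1.89, and the cationic amino acid transporter Slc7a1 by 0.89 and 2.22. Slc7a1 was uneven in KO L-AC, with a median of 1.70 CPM and a highest library of 5.87. Slc1a5, a glutamine transporter, rose in WT (0.92, SE 0.251) and had 0.42 in KO (SE 0.289, adjusted p = 0.235). The 8 serine, one-carbon and proline enzymes held 3 that rose and 2 that fell in each genotype: Psat1 (1.87 and 3.10), Mthfd2 (1.17 and 2.24) and Mthfd1l (1.15 and 0.92) rose, and Psph (-0.74 and -0.66) fell. For Psat1 and Mthfd2 the KO values include the high replicates 2 and 3 of KO L-AC. Their WT values include the high WT saline replicate 1. Of 20 cytosolic tRNA synthetases, 9 rose and 2 fell in both genotypes, with Gars (0.89 and 1.06) and Lars (1.0 and 1.06) among them.

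Immediate early genes, which respond within minutes and also to handling of tissue, rose in 4 and fell in 5 of 12 cases in WT, and rose in 4 and fell in 2 in KO. Across all genes these shares were 26.6% and 26.7% in WT, and 25.2% and 23.6% in KO. Klf6 (2.27 and 2.65) and Myc (2.25 and 2.73) rose, and Fos, named above, fell. Their summed level was 359 to 692 CPM in WT L-AC, 397 to 650 in KO L-AC, 451 to 841 in WT saline and 501 to 724 in KO saline. The part of handling in the Atf3 values was not tested. No gene of the 9 lists was called between genotypes or in the interaction by edgeR. At an unadjusted p under 0.05, 0 genes of any of these lists differed between genotypes under saline (1.86% of all genes). Under L-AC 0 to 4 of a list did (4.53% of all genes), and in the interaction 0 to 2 (2.25%). The highest counts, 4 and 2, were both of the 16 other targets of ATF4 or CHOP.

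**Figure D4:**
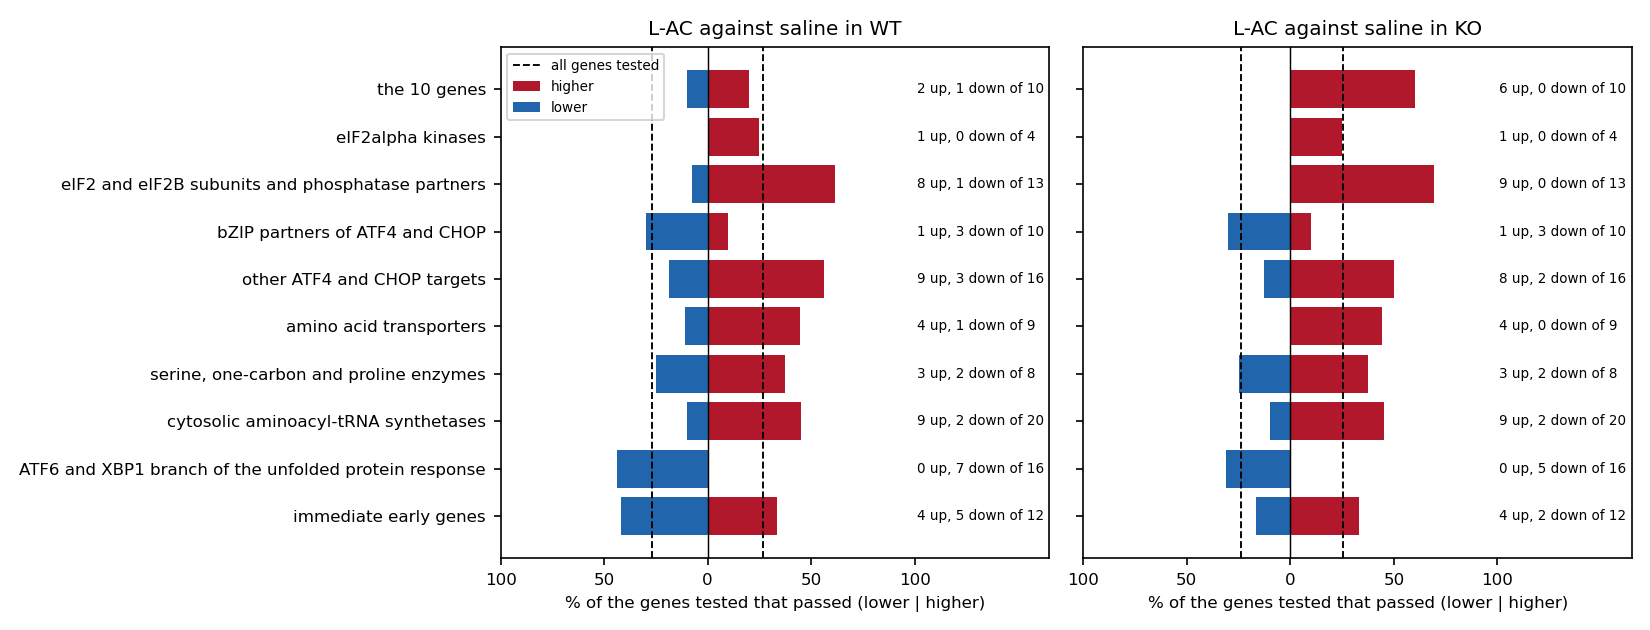
Percent of the tested genes of each list that rose (right, red) or fell (left, blue) on L-AC at an adjusted p under 0.05, in WT and KO, with the counts beside the bars. Dashed lines give the percent over all genes tested, 26.6% higher and 26.7% lower in WT and 25.2% and 23.6% in KO; the eIF2 and eIF2B list reaches 9 of 13 higher in KO, and the ATF6 and XBP1 branch has bars only on the lower side.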

How the data were processed

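Raw counts of reads per gene were deposited for each of the 23 libraries, made by the authors with featureCounts 1.4.4 on mm10 gene models, per the file headers, which also record that strand was ignored and that a read was counted for every gene it overlapped. Reads were aligned with STAR 2.4.0 to mm10 (GRCm38), per the submitters' processing notes. Libraries were polyA-selected and read from a single end, per the labels' protocols. Each library carries its own animal label and age and was taken as a separate mouse, and replicates were numbered in accession order.

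Genes were kept by filterByExpr (minimum count 10, minimum total 15), and TMM-scaled counts were fitted by edgeR 4.0.16 in R 4.3.3 (quasi-likelihood test, two-sided) with a mean for each group and all 23 libraries in the fit. Benjamini-Hochberg adjustment ran over 14196 genes, and calls were made below an adjusted p of 0.05. The SE of a contrast is its log2 fold change divided by the square root of its F statistic. CPM are counts relative to the TMM-scaled library size, and CPM per kilobase divide by the exonic length in the files. The genes and lists hold 160 symbols found directly, 1 found through a synonym and 1 not found. The fit was tested on simulated data.

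The 10 genes and all lists were chosen with earlier results of these data known. From each pathway list up to 4 called genes with the smallest p could be named, and for likeness the 2 genes with the highest r among those with a mean of at least 1 CPM. Some genes taken by this rule are not reported here. Alternatives were DESeq2 1.42.0, limma-voom (limma 3.58.1), other scalings and filters, age as a covariate, a stricter threshold and each library left out. Leaving out KO L-AC replicates 2 and 3, with or without WT saline replicate 1, was added after the data were seen. Promoter sequences are from RefSeq on GRCm38.p6.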

Additional observations from a re-analysis of the deposited data

Results flagged for a closer look

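In 4 cases a value lay so far above the rest of their group that the gap to the next library, as a share of the group's range, passed Dixon's 95% limit. In 40 groups of 5 to 7 libraries (10 genes in 4 groups) chance gives about 1 in 20, or 2 such values, if values are normally distributed. The ratio was taken on CPM without a logarithm, where skew to high values can raise that number, so 4 is not shown to exceed chance. They were Atf3 in KO saline replicate 2 (7.30 CPM), Atf3 in WT L-AC replicate 6 (20.1 CPM), Asns in WT saline replicate 1 (29.3 CPM) and Slc7a11 in KO L-AC replicate 3 (7.73 CPM). The paired high values of Ddit3 and Chac1 in KO L-AC replicates 2 and 3 are not among them, since the gap to the next library is taken for 1 library at a time.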

How the results depend on the processing

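At an adjusted p under 0.01, 1 of the 10 genes was called in WT on L-AC (39.9% of all genes) and 3 in KO (35.3%). With each library left out in turn the counts were 2 to 4 in WT and 3 to 7 in KO, with 3 without KO L-AC replicate 3. Without KO L-AC replicates 2 and 3 the KO count was 2, and 3 when WT saline replicate 1 was left out too (43.2% and 45.1% of all genes). Those 3 were Sesn2 and Asns, higher, and Ddit3, lower. Between genotypes and in the interaction the count was 0 in every alternative. Slc7a11 got no adjusted p from DESeq2. No paired analysis was possible because replicate numbers follow accession order and pair no mice.

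Some differences that had not passed the threshold changed sign, and the cause was not tested. Without the 3 libraries, the interaction of Atf5 was -0.0918, of Atf3 -0.14, of Chac1 -0.079 and of Asns -0.66, KO against WT under saline was 0.0741 for Trib3, 0.0915 for Chac1 and 1.13 for Asns, and Chac1 in WT on L-AC was 0.17. Without the pair, the interaction of Ddit3 was -0.0136. With age as a covariate, Atf5 in KO against WT under L-AC was 0.15, Ddit3 in KO on L-AC 0.11 and the interaction of Sesn2 -0.0385. In limma-voom, KO against WT under saline was -0.00326 for Atf3, 0.38 for Asns and 0.0629 for Slc7a11, and with no filter Atf4 in WT on L-AC was 0.000392.

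Leaving out single libraries, L-AC in WT ranged from -0.11 to 0.10 for Atf4, -0.82 to 0.18 for Chac1, -0.11 to 2.94 for Asns and -0.073 to 0.0511 for Ppp1r15a, and L-AC in KO from -0.35 to 0.16 for Ddit3. KO against WT under saline ranged from -0.0453 to 0.15 for Atf4, -0.30 to 0.43 for Atf3, -0.48 to 0.0794 for Trib3, -0.66 to 0.0992 for Chac1, -1.99 to 1.13 for Asns and -0.19 to 0.12 for Slc7a11, and under L-AC from -0.19 to 0.11 for Atf5. The interaction ranged from -0.0632 to 0.23 for Atf5, -0.43 to 2.69 for Asns and -0.0519 to 0.12 for Sesn2. Depth limits the low values of Asns and Slc7a11, whose lowest libraries in WT saline held 4 and 7 reads.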
